A study of Mus musculus with 6 samples.

Results

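The genes described here encode 10 enzymes and chaperones that fold, modify and cross-link collagen. They were chosen by name, with earlier results of these data known. They are the 5 lysyl oxidases Lox, Loxl1, Loxl2, Loxl3 and Loxl4, the 3 lysyl hydroxylases Plod1, Plod2 and Plod3, the chaperone Serpinh1 and the prolyl hydroxylase subunit P4ha3. All 10 were found among the 55385 mouse gene IDs of the count table. RNA came from PDVC57, an established mouse squamous carcinoma line of keratinocyte origin. One group of 3 libraries carried a Sox2 knockout and the other group of 3 carried Sox2 overexpression. Both groups were described by the series as tumour cells low or high in Sox2, a stem cell transcription factor, taken from grafted tumours. The labels give no vector, clone, host strain or animal for a library, and none of the 6 libraries is labelled as having unmodified Sox2. Nothing in the labels says whether replicates came from separate tumours, so p-values measure only the spread between these libraries.

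Collagen is made as a procollagen in the endoplasmic reticulum, where prolines are hydroxylated so that the triple helix holds at body temperature, and some lysines are hydroxylated and glycosylated. The chaperone Hsp47, the product of Serpinh1, binds the folded helix and travels with it towards the Golgi. After secretion, the propeptides are cut off and copper-dependent lysyl oxidases turn lysine and hydroxylysine side chains into reactive aldehydes, which form the covalent cross-links that stiffen a fibre. Fibroblasts are the main makers of fibrillar collagen in skin and in tumours, and lysyl oxidases and Plod2 are known as genes that stiffen the matrix around carcinomas.

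Library totals lay between 31247976 and 38543221 counts. Sox2 separated the groups as labelled, at 25 to 49 counts with knockout and 2566 to 4095 with overexpression. Across 18504 tested genes, Pearson's correlation of log2 CPM (counts scaled to the size and composition of each library) lay between 0.977 and 0.991 within a group and between 0.868 and 0.920 across groups, which describes the libraries only because genes are not independent replicates. The libraries also differed in markers of other cells. All 10 markers of fibroblasts fell, from summed levels of 5319 to 7053 CPM in knockout libraries to 21.0 to 40.3 CPM in overexpression libraries, and none of them was at 0 in any group. Endothelial markers summed to 18.4 to 68.1 CPM with knockout and 2.26 to 4.12 CPM with overexpression (4 of 4 tested fell), and mural cell markers to 247 to 372 CPM and 90.4 to 130 CPM (5 of 6 fell and 1 rose). White blood cell markers lay at 23.0 to 140 CPM with knockout and 14.1 to 28.1 CPM with overexpression, where S100a9 was at 0, and 4 of 6 tested fell. By the same edgeR calls, described below, 18% of all tested genes fell and 13.6% rose. Epithelial markers, which define the labelled cell line, were present in every library at 4804 to 7576 CPM with knockout and 10628 to 15078 CPM with overexpression. In bulk libraries, fewer cells of a type and less RNA per cell cannot be told apart.

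Of the 10 enzyme genes, 8 fell, 1 rose and 1 did not pass the test when Sox2 overexpression was compared with knockout. All 10 passed the filter on low counts, P4ha3 only through its knockout libraries, where it was high, since overexpression replicate 1 held 6 of its counts. Calls used an adjusted p under 0.05 in the quasi-likelihood test of edgeR, fitted and adjusted over all 18504 tested genes, of which 31.6% were called, 18% lower and 13.6% higher. The log2 ratio used throughout is the fitted fold change, overexpression over knockout, on a log2 scale. Its median over the 10 genes was -5.41, where that of all tested genes was -0.02. A total of 5 of them, Lox, Loxl1, Loxl2, Serpinh1 and P4ha3, were at least 100-fold lower. For 9 of the 10 the libraries of the groups did not overlap, 8 with knockout higher and Loxl4 with overexpression higher, where 26.5% and 24.4% of all tested genes separated in those directions, 50.9% in all. The part of the fibroblast markers in these falls was not tested.

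**Figure D1:**
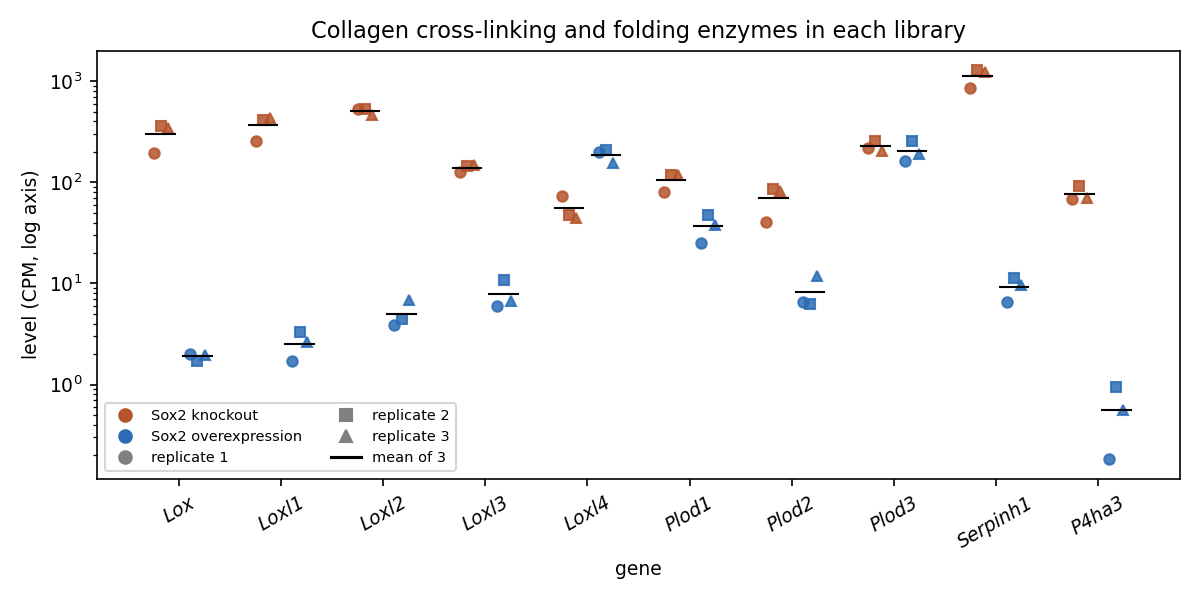
Level of each enzyme gene in each library, in CPM on a log axis, with knockout in red-brown, overexpression in blue, 1 symbol per replicate and a black line at the mean of 3. Loxl4 is the gene whose overexpression libraries (156 to 210.0 CPM) all lie above its knockout libraries (44.5 to 73.6 CPM), and Plod3 overlaps between groups.

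The lysyl oxidases showed both the largest falls and the one rise. Lox (ENSMUSG00000024529, chromosome 18, 52516067 to 52529867, minus strand, GRCm38), the founding member of the family, was at 194, 363 and 342 CPM in knockout replicates 1, 2 and 3 and at 2.01, 1.73 and 1.95 CPM in overexpression replicates 1, 2 and 3. Knockout replicate 1 was the lowest of its group, yet it stood far above every overexpression library. The log2 ratio of Lox was -7.30 (standard error, SE, 0.31, adjusted p = 1.56e-06, edgeR), a 158-fold difference.

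Loxl1 (ENSMUSG00000032334, chromosome 9, 58287738 to 58313186, minus strand), best known for its role in elastic fibres, followed the same pattern. It was measured at 257, 415 and 436 CPM with knockout and at 1.71, 3.32 and 2.61 CPM with overexpression. Replicate 1 was again the lowest knockout library, and the groups did not overlap. Its log2 ratio was -7.18 (SE 0.35, adjusted p = 2.12e-06, edgeR).

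Loxl2 (ENSMUSG00000034205, chromosome 14, 69609068 to 69695834, plus strand) encodes an oxidase with scavenger receptor domains that also acts on basement membrane collagen. Its knockout libraries were close together at 532, 535 and 459 CPM, without the lower value of replicate 1 seen for Lox and Loxl1. With overexpression it reached 3.85, 4.40 and 6.78 CPM, which gave a log2 ratio of -6.66 (SE 0.28, adjusted p = 1.56e-06, edgeR). Exons of Loxl2 share 301 bases, 5.57% of their length, with Gm27177 on the other strand. The highest count of Gm27177 over the libraries of both groups was 243, beside 126, 130 and 268 counts of Loxl2 with overexpression. Without strand, reads of the overlap cannot be told apart, and the strand setting of the counting is not given in the sources used here.

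Loxl3 (ENSMUSG00000000693, chromosome 6, 83034173 to 83052562, plus strand), an oxidase needed in palate and spine development, fell less. Its level was 126, 145 and 149 CPM with knockout and 5.98, 10.9 and 6.70 CPM with overexpression. The groups were fully apart, with a 17.8-fold difference (log2 ratio -4.15, SE 0.25, adjusted p = 6.61e-06, edgeR). The exons of Loxl3 share 535 bases, 11.6% of their length, with those of Htra2 on the other strand. The highest count of Htra2 over the libraries of both groups was 1629, where Loxl3 had 196 to 323 with overexpression. The part of Htra2 in the 17.8-fold value was not tested.

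Loxl4 (ENSMUSG00000025185, chromosome 19, 42593982 to 42612813, minus strand), another oxidase with scavenger receptor domains, was the gene that rose. Its counts were 2510, 1429 and 1623 in knockout replicates 1, 2 and 3 and 6469, 6208 and 6164 in overexpression replicates 1, 2 and 3. Its level went from 55.1 ± 16.1 to 188 ± 28.3 CPM (SD, n = 3 each). The log2 ratio was 1.77 (SE 0.23, adjusted p = 0.000496, edgeR). Knockout replicate 1, the lowest library for Lox and Loxl1, was the highest of its group for Loxl4. Of 12 epithelial markers in the same libraries, 8 rose, with a median log2 ratio of 1.04 over all 12, where 13.6% of all tested genes were called higher. The part of those markers in the rise of Loxl4 was not tested. When libraries were scaled to the epithelial markers, the median of all tested genes moved to -1.04 and Loxl4 was still higher, by 0.79 on the log2 scale (adjusted p = 0.0368, edgeR), the highest of its adjusted p-values over the alternatives, which started at 1.25e-11.

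**Figure D2:**
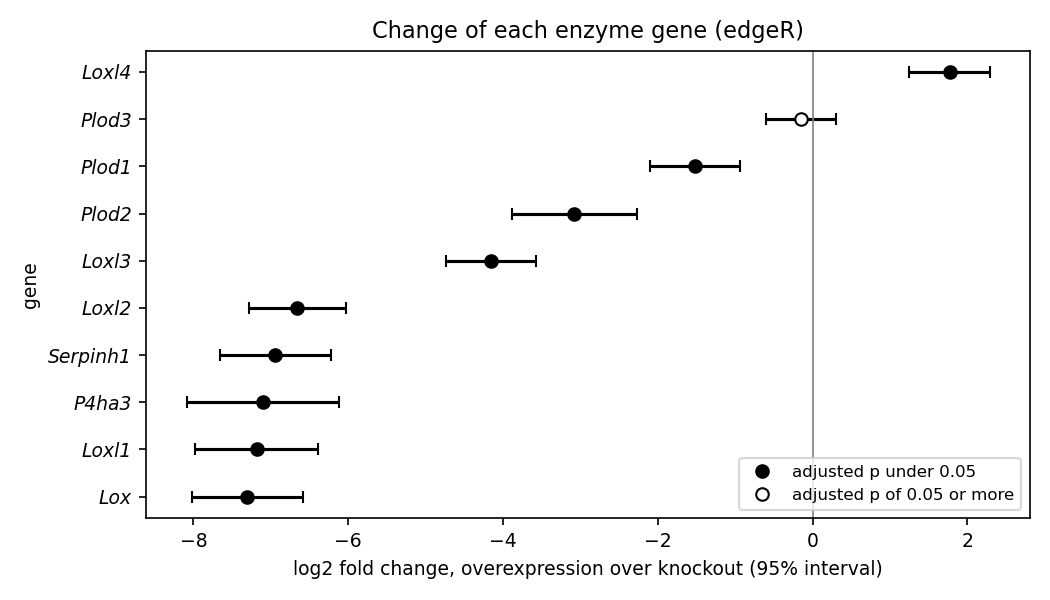
Log2 fold change of each enzyme gene, overexpression over knockout, with its 95% interval from the edgeR fit, with filled points for an adjusted p under 0.05 and an open point for Plod3. The interval of Plod3 runs from -0.61 to 0.30, and that of Loxl4 from 1.25 to 2.29 lies wholly above 0.

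Because the family members changed unequally, its makeup was different in the groups. Levels of different genes are compared here only as CPM per kilobase of merged exons. With knockout, Loxl1 held 35.4% ± 5.17 (SD, n = 3) of the summed lysyl oxidase signal, Loxl2 30.7% ± 6.22, Lox 19.8% ± 3.68, Loxl3 9.78% ± 0.659 and Loxl4 4.37% ± 1.99. With overexpression, Loxl4 alone held 92.1% ± 1.85 (SD, n = 3) of it. The share of Loxl4 was 6.67%, 3.27% and 3.18% in the knockout libraries and 94.1%, 91.6% and 90.4% in the overexpression libraries, so that no library of one group came near the other. The summed signal itself was 312 ± 44.2 CPM per kilobase with knockout and 48.4 ± 6.86 with overexpression (SD, n = 3 each). An exact two-sided permutation test over libraries gave p = 0.1 for each of 8 shares tested (adjusted p = 0.1). That is the smallest p that 3 libraries against 3 allow, so the test could not pass 0.05. The shares of a family add up to the whole and are not independent of each other.

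**Figure D3:**
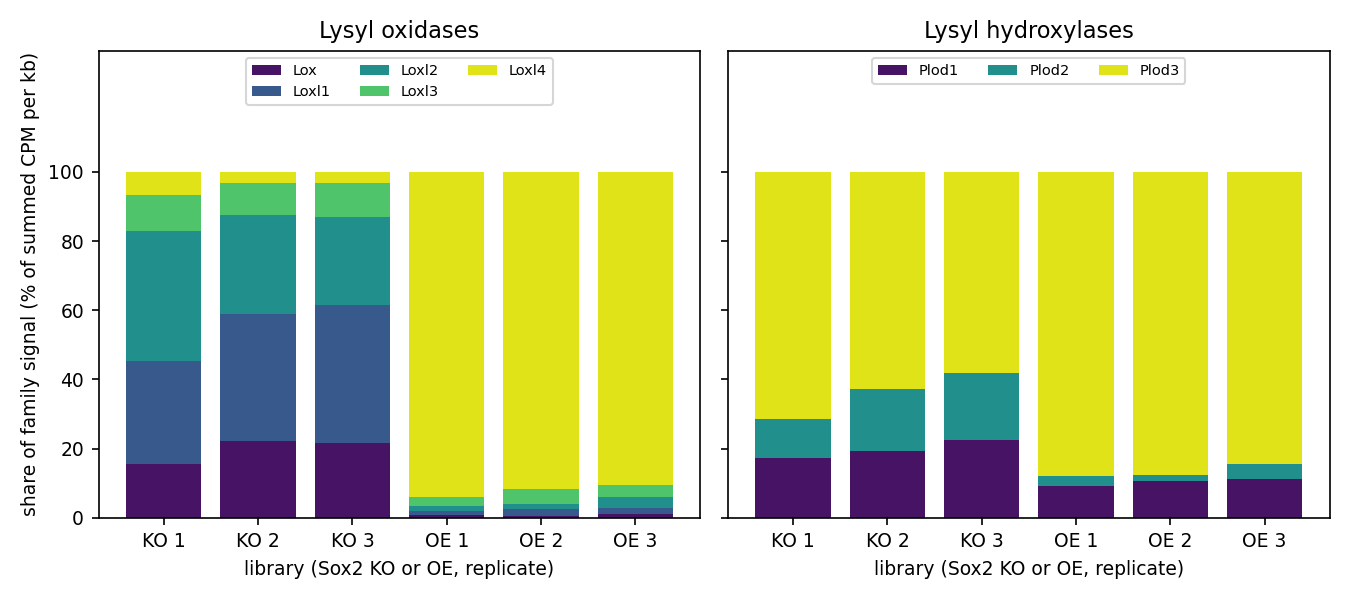
Share of each gene in the summed signal of its family, in percent of CPM per kilobase, for each library (KO for knockout, OE for overexpression). Loxl4 fills 90.4% to 94.1% of the lysyl oxidase bars with overexpression and 3.18% to 6.67% with knockout, and Plod3 fills most of the lysyl hydroxylase bar in every library.

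The lysyl hydroxylases decide which lysines later form the more stable cross-links. Plod1 (ENSMUSG00000019055, chromosome 4, 147909753 to 147936767, minus strand) acts on lysines within the collagen helix. Its knockout libraries were at 79.8, 118 and 118 CPM and its overexpression libraries at 25.3, 47.4 and 37.5 CPM. It fell by 1.52 on the log2 scale (SE 0.26, adjusted p = 0.00214, edgeR), a 2.87-fold difference between groups that did not overlap.

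Plod2 (ENSMUSG00000032374, chromosome 9, 92542223 to 92608428, plus strand) hydroxylates the lysines of the collagen telopeptides, where cross-links start, and is a known target of hypoxia. Its levels were 40.9, 86.2 and 82.2 CPM with knockout and 6.59, 6.29 and 11.8 CPM with overexpression. The lowest knockout library, replicate 1, was above the highest overexpression library, replicate 3. The difference was 8.45-fold, or -3.08 on the log2 scale (SE 0.36, adjusted p = 0.000269, edgeR). Its exons share 346 bases with Gm38391 on the other strand, a gene with at most 35 counts in a library.

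Plod3 (ENSMUSG00000004846, chromosome 5, 136987019 to 136996648, plus strand), whose product both hydroxylates lysines and adds sugars to them, was the gene that did not pass the test. It was at 219.5, 256 and 206 CPM with knockout and at 163, 259 and 190.2 CPM with overexpression. The highest and the lowest of these 6 values both belonged to overexpression libraries. The log2 ratio was -0.15 with a 95% interval from -0.61 to 0.30 (adjusted p = 0.584, edgeR), so a fall such as that of Plod1 lay outside the interval. Scaled to the epithelial markers, its log2 ratio was -1.18 with an adjusted p of 0.00274, beside the median of -1.04 for all tested genes under that scaling, and its adjusted p ranged from 0.00274 to 0.988 over the alternatives. Exons of Plod3 share 529 bases, 11.7% of their length, with Znhit1 on the other strand, a gene with up to 3691 counts in a library.

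Per kilobase, Plod3 held 64.2% ± 6.77 of the summed lysyl hydroxylase signal with knockout and 86.6% ± 1.89 with overexpression (SD, n = 3 each). Plod1 went from 19.7% ± 2.53 to 10.3% ± 1.07 and Plod2 from 16.1% ± 4.39 to 3.05% ± 1.31. In the knockout libraries the share of Plod2 was 11.2%, 17.7% and 19.5%, and in the overexpression libraries 2.98%, 1.78% and 4.40%. The groups were apart for all 3 shares, which are not independent of each other, and the exact test could not decide on them, as given above.

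Serpinh1 (ENSMUSG00000070436, chromosome 7, 99345376 to 99353239, minus strand) had the highest level per kilobase of the 10 genes with knockout. It was at 851, 1282 and 1231 CPM with knockout and at 6.53, 11.3 and 9.56 CPM with overexpression. Its counts fell from between 29040 and 44928 to between 214 and 378. The log2 ratio was -6.94 (SE 0.31, adjusted p = 1.92e-06, edgeR).

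P4ha3 (ENSMUSG00000051048, chromosome 7, 100285520 to 100319699, plus strand) encodes a catalytic subunit of collagen prolyl 4-hydroxylase. Its knockout libraries held 2339, 2778 and 2534 counts and its overexpression libraries 6, 28 and 22. At 0.562 ± 0.382 CPM with overexpression (SD, n = 3), it was the lowest of the 10 genes per kilobase and the one whose overexpression libraries differed most among themselves, by a factor of 5.17. Its log2 ratio was -7.10 (SE 0.43, adjusted p = 6.50e-06, edgeR). It was -6.67 without overexpression replicate 1 and -7.61 without overexpression replicate 2, with adjusted p-values of at most 0.000157 over all alternatives.

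The order of the levels per kilobase changed between groups. With knockout it ran from Serpinh1 (459 CPM per kilobase) through Loxl1 (112), Loxl2 (94.1), Lox (62.8), Plod3 (50.3), Loxl3 (30.4), P4ha3 (24.4), Plod1 (15.6) and Loxl4 (13.1) to Plod2 (12.9). The ranges of Loxl1 and Loxl2, of Lox and Plod3, of Loxl3 and P4ha3, of Plod1 and Loxl4 and of Loxl4 and Plod2 overlapped, and those neighbours were not told apart. With overexpression, Plod3 (45.1) and Loxl4 (44.6) stood at the top with overlapping ranges. Plod1 (5.43) and Serpinh1 (3.74) overlapped below them, followed by Loxl3 (1.71), Plod2 (1.53), Loxl2 (0.926) and Loxl1 (0.771), whose neighbours in that order also overlapped. Lox (0.397) and P4ha3 (0.179) were last and separate.

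Promoter sequences were available in the RefSeq table (GRCm38.p6) for 5 of the 10 genes, Loxl4, P4ha3, Plod1, Plod3 and Serpinh1. The 250 bases before the start are shown for 4 genes that moved differently, since Serpinh1 and P4ha3 fell, Loxl4 rose and Plod3 did not pass the test. Capitals mark matches on either strand to the motifs searched. These were the hypoxia response core, spelled ACGTG, the GC box, spelled GGGCGG, the TATA box, spelled TATAAA, and the CCAAT box, spelled as its name. The SMAD element was searched as CAGAC, one SOX element as CATTGT, the other SOX element as CTTTGT, and the AP-1 element as TGANTCA, where N is any base. The windows are chr7:99353240-99353489 on the minus strand for Serpinh1, chr7:100285270-100285519 on the plus strand for P4ha3, chr19:42612807-42613056 on the minus strand for Loxl4 and chr5:136986769-136987018 on the plus strand for Plod3, each written 5′ to 3′ along its gene.
Serpinh1: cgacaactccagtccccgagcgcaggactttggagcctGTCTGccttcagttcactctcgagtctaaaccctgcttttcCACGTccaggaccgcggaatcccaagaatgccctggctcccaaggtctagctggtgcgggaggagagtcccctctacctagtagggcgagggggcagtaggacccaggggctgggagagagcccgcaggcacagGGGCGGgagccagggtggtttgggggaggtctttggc
P4ha3: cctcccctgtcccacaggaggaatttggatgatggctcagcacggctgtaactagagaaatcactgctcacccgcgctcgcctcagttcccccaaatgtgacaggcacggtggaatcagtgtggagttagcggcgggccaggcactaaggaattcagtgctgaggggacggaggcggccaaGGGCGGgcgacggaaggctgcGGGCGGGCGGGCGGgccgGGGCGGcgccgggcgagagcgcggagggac
Loxl4: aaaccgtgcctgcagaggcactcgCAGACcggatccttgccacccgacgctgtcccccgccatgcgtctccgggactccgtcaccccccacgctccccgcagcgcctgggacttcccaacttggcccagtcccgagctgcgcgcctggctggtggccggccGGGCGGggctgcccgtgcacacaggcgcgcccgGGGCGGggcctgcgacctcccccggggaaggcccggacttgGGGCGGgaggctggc
Plod3: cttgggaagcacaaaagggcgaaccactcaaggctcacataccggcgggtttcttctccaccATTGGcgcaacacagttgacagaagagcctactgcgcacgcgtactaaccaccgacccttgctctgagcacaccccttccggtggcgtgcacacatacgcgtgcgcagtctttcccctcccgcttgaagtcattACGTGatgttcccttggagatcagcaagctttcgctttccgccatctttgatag

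The GC box occurred 5 times in the P4ha3 window, where 3 of the matches overlap in 1 run, 3 times in that of Loxl4 and 1 time in that of Serpinh1, and 32.7% of all 32851 windows of this length hold it. The Plod1 window held 2. The hypoxia response core was found 171 bases upstream of the Serpinh1 start and 54 bases upstream of the Plod3 start, and 16.6% of all windows hold it. The SMAD element was present in the windows of Serpinh1, Loxl4 and Plod1, where 42.2% of all windows hold it. Neither SOX element occurred in the 5 windows, and 10.7% of all windows hold CATTGT and 16.5% CTTTGT. The AP-1 element (6.75% of all windows) was also not found in them, the CCAAT box (33.8%) was found in that of Plod3 and the TATA box (12.4%) in that of Plod1. The share of G and C was 76.0% for Loxl4, 67.2% for P4ha3, 63.6% for Serpinh1, 61.6% for Plod1 and 55.6% for Plod3, beside a median of 52.4% and quartiles of 45.2% and 61.2% over all windows, so that Plod3 lay within the quartiles and Plod1 just above the upper one. The GC box thus stood before genes that fell and before the gene that rose, and a match describes letters only.

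Fibrillar collagens are among the substrates of this set of enzymes. In total, 9 of 11 tested fibrillar collagen genes fell, 1 rose and 1 did not pass, with a median log2 ratio of -7.55. Of all tested genes, 18% were called lower and 13.6% higher. The sum of Col1a1, Col1a2 and Col3a1 took up 5.29% to 7.47% of counts with knockout and 0.0249% to 0.0385% with overexpression. The counts of each enzyme gene were therefore also set against 1000 counts of these 3 collagens in the same library, as a description. Serpinh1 had 16.6, 16.4 and 16.8 counts per 1000 collagen counts in the knockout libraries, a narrow range for a gene whose CPM differed by a factor of 1.51 between them. With overexpression it had 27.3, 41.6 and 25.5. Plod1 also had a narrow range in the knockout libraries, at 1.55, 1.52 and 1.62, where its CPM differed by a factor of 1.48. For 5 genes, Lox, Loxl1, Loxl2, Serpinh1 and P4ha3, this ratio differed between groups by a factor of 1.52 to 2.14, with overexpression higher. The groups did not overlap for Lox, Loxl1, Loxl2 and Serpinh1, and they overlapped for P4ha3 (0.949 to 1.34 and 0.765 to 3.49).

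The other 5 genes lay far higher relative to collagen with overexpression, among them 3 that fell in CPM. The ratio was 13.1 times higher with overexpression for Loxl3, 27.2 times for Plod2, 81.1 times for Plod1, 207 times for Plod3 and 761 times for Loxl4. Loxl4 had 0.605 to 1.43 counts per 1000 collagen counts with knockout and 415 to 824 with overexpression. Plod1 had 1.52 to 1.62 and 99.97 to 175. The ratios share their denominator, which was far lower with overexpression, and are not independent of each other. A gene with little change in CPM therefore also lay far higher relative to collagen, as Plod3 did with a log2 ratio of -0.15. The ratios of Loxl3, Plod2 and Plod1 differed less between groups than that of Plod3, and that of Loxl4 differed more.

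**Figure D4:**
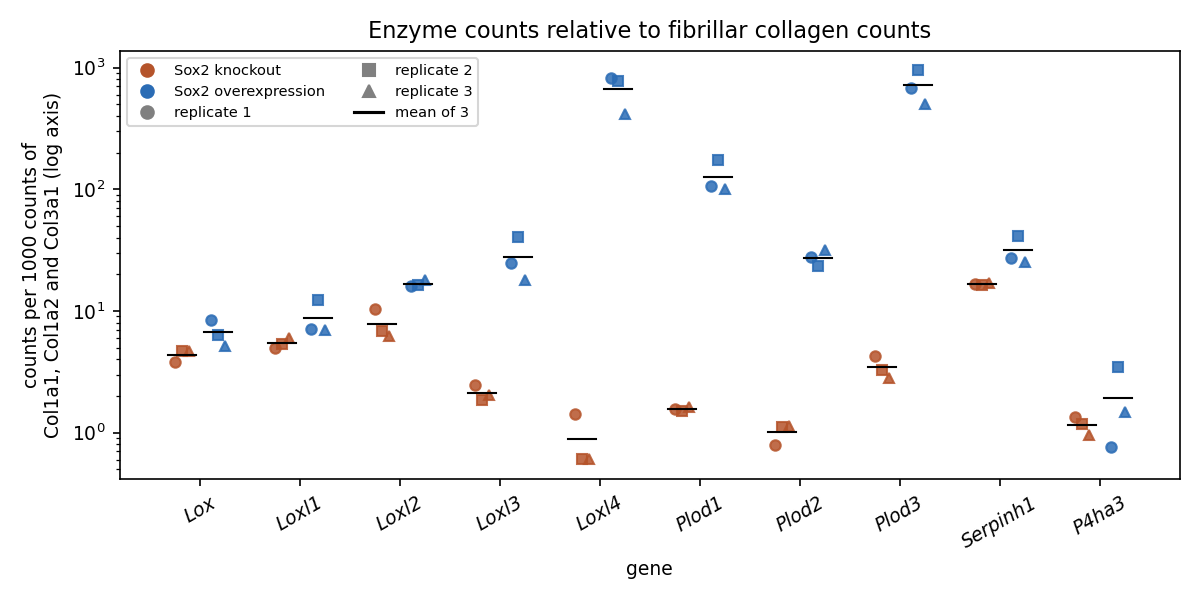
Counts of each enzyme gene per 1000 counts of Col1a1, Col1a2 and Col3a1 in the same library, on a log axis, with knockout in red-brown, overexpression in blue and a line at the mean of 3. Lox, Loxl1, Loxl2, Serpinh1 and P4ha3 lie within a factor of 2.14 between the group means, and Loxl4 and Plod3 lie more than 200 times apart.

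The other steps of collagen production were examined with 49 further genes in 7 lists, of which 48 were tested and Tll2 did not pass the count filter. Of these, 31 fell, 2 rose and 15 did not pass the test, with a median log2 ratio of -2.46. Beside these counts and those of each step below, 18% of all tested genes were called lower and 13.6% higher. The median log2 ratio of all tested genes was -0.02. In prolyl hydroxylation, 3 of 8 genes were called lower and 0 higher. P3h1, a collagen prolyl 3-hydroxylase, had the smallest p-value and fell from 83.3 ± 6.63 to 4.27 ± 0.877 CPM (SD, n = 3 each), by 4.28 on the log2 scale (adjusted p = 2.09e-06, edgeR). P3h2, named after its values were seen, had a log2 ratio of 0.91 (adjusted p = 0.0536, edgeR), close to the threshold, without overlap between groups. It passed as higher with DESeq2 (adjusted p = 0.0170) and with no filter (adjusted p = 0.00240, edgeR). Scaled to the epithelial markers, its log2 ratio was -0.058 (adjusted p = 0.877, edgeR). Exons of P3h2 share 1055 bases, 28.4% of their length, with Gm4524 on the other strand. The highest count over the libraries of both groups was 494 for Gm4524 and 2885 for P3h2. As for Loxl2, the strand setting is not given, and the part of Gm4524 in the P3h2 values was not tested. P4hb encodes the subunit that P4ha3 needs in the prolyl 4-hydroxylase tetramer, and P4ha1 and P4ha2 its other catalytic subunits; these 3 were named after their values were seen. P4hb had 665 ± 53.5 and 519.9 ± 124 CPM (SD, n = 3 each), and its log2 ratio was -0.36 (adjusted p = 0.209, edgeR). It passed as lower when overexpression replicate 2 was left out (adjusted p = 0.0213) and when scaled to the epithelial markers (0.000542), where the highest adjusted p over the alternatives was 0.478. P4ha1 had a log2 ratio of -0.82 (adjusted p = 0.0527, edgeR), close to the threshold, and was lower past it in 7 of 12 alternatives, DESeq2 among them (adjusted p = 0.0191, with a range of 3.37e-05 to 0.165 over the alternatives). P4ha2 fell by 1.56 on the log2 scale (adjusted p = 0.000421, edgeR), and P4ha3 had the lowest fitted log2 ratio of the 3 catalytic subunits.

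Among the other folding partners in the endoplasmic reticulum, 3 of 5 fell and 0 rose. Fkbp7, a prolyl isomerase, fell from 33.1 ± 8.96 to 2.32 ± 0.278 CPM (SD, n = 3 each), by 3.83 on the log2 scale (adjusted p = 1.15e-05, edgeR). Ppib, the cyclophilin that works with P3h1, had a log2 ratio of -0.09 with an interval from -0.56 to 0.37 (adjusted p = 0.752, edgeR; named after its values were seen) and was lower past the threshold under the epithelial scaling (adjusted p = 0.00419, with a range of 0.00419 to 0.987 over the alternatives). In hydroxylysine glycosylation 1 of 3 genes fell. Colgalt2, a collagen galactosyltransferase, had 28, 38 and 56 counts with knockout and 1, 0 and 1 with overexpression, at least 11.9-fold lower against a floor of 3 counts per library. For procollagen export, 3 of 5 genes fell, led by Sec24d, a coat protein of the vesicles that leave the endoplasmic reticulum, with a log2 ratio of -1.51 (adjusted p = 0.000496, edgeR).

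Outside the cell, all 7 tested genes of propeptide removal fell. Adamts2, which cuts the amino propeptide, went from 479 ± 78.4 to 2.18 ± 0.826 CPM (SD, n = 3 each), which makes a log2 ratio of -7.77 (adjusted p = 1.56e-06, edgeR). Of 9 genes for lysyl oxidase partners and copper supply, 5 fell and 1 rose. Postn, a matrix protein that helps activate lysyl oxidase, fell by 7.87 on the log2 scale (adjusted p = 3.54e-06, edgeR), and Atox1, a copper chaperone, rose from 33.5 ± 2.07 to 71.2 ± 26.0 CPM (SD, n = 3 each; log2 ratio 1.09, adjusted p = 0.00874, edgeR). Scaled to the epithelial markers, the log2 ratio of Atox1 was 0.046 (adjusted p = 0.904, the highest over its alternatives, which began at 4.57e-05). Col5a3 had the smallest p-value of the fibrillar collagens, at a log2 ratio of -7.64 (adjusted p = 1.06e-06, edgeR), and Col3a1, Col1a2 and Col24a1 had lower log2 ratios. Col2a1, the cartilage collagen, was the fibrillar gene that rose, on 2 to 10 counts with knockout and 22 to 38 with overexpression (adjusted p = 0.0154, edgeR). That p became 0.0519 without knockout replicate 2, 0.0673 without overexpression replicate 2 and 0.111 when scaled to the epithelial markers, where the range over the alternatives was 0.00634 to 0.111. Its log2 ratio of 2.39 became 2.99 without knockout replicate 3, 2.05 without knockout replicate 2 and 1.31 when scaled to the epithelial markers. Col2a1 passed the count filter only through its overexpression libraries, where it was high.

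**Figure D5:**
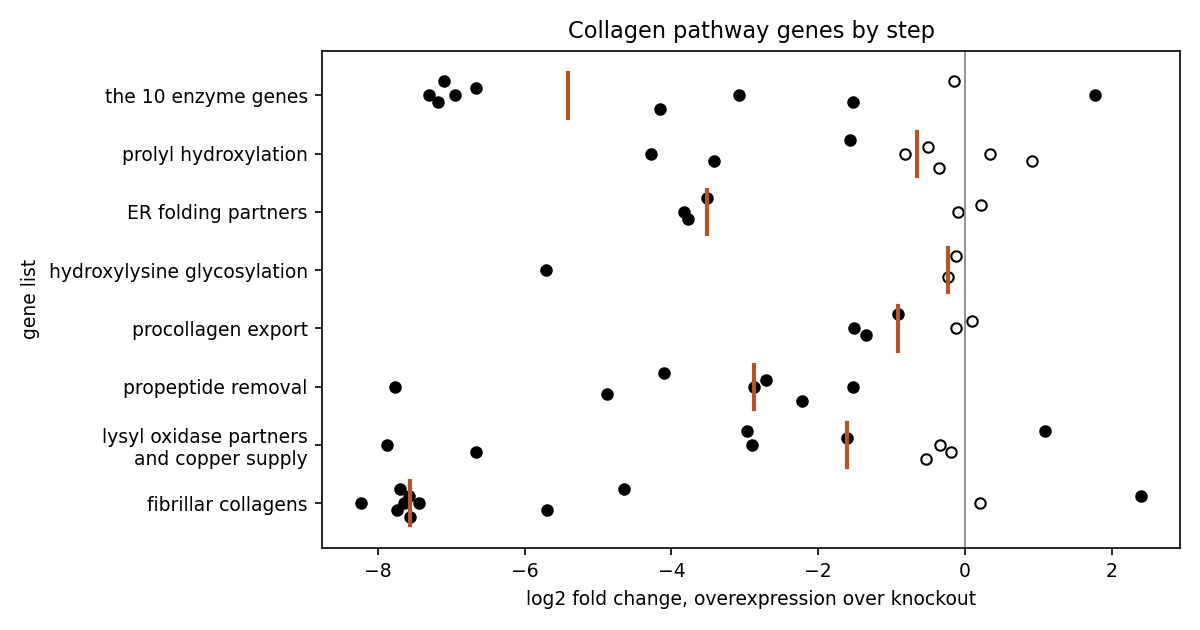
Log2 fold change, overexpression over knockout, of each tested gene by step of collagen production, with filled points for an adjusted p under 0.05, open points for the others and a red-brown line at the median of the list. The 10 enzyme genes have a median of -5.41 and the fibrillar collagens one of -7.55, and the point of Colgalt2 (the farthest left for hydroxylysine glycosylation) rests on at most 1 overexpression count in a library.

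Within groups the enzyme genes did not vary as 1 block. In knockout replicate 1, the 7 genes Lox, Loxl1, Loxl3, Plod1, Plod2, Serpinh1 and P4ha3 were lowest of the group, Loxl4 was highest, and Loxl2 and Plod3 were close to their means, at 0.068 and -0.042 from them on the log2 scale. For P4ha3 the margin was small, with 68.6 CPM in knockout replicate 1 and 69.5 CPM in knockout replicate 3. Plod2 spread most among the knockout libraries, by a factor of 2.11, and Loxl2 least, by a factor of 1.17. Lox spread least among the overexpression libraries, also by a factor of 1.17. The summed fibroblast markers were also lowest in knockout replicate 1, at 5319 CPM, as were white blood cell markers (23.0 CPM) and endothelial markers (18.4 CPM). Epithelial markers were lowest in knockout replicate 3 (4804 CPM) and mural cell markers in knockout replicate 2 (247 CPM). Among the overexpression libraries the fibroblast markers were highest in replicate 3, at 40.3 CPM. Loxl2 and Plod2 were highest there too, whereas Lox was highest in overexpression replicate 1 and the other enzyme genes in overexpression replicate 2. No relation to these markers was tested.

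Genes whose pattern resembled that of 1 gene of each role were sought among 8665 other genes with an average log2 CPM of at least 4, by Pearson's correlation of log2(CPM + 1) over the 6 libraries. The correlations rest mainly on the difference between the groups, and are a description. Closest to Lox were Mmp23, Plxdc2 and Prrx1, closest to Plod2 were Gng12, Lamc1 and Dlc1, and closest to Serpinh1 were Fbn1, Lama4 and Loxl1. All 9 coefficients lay between 0.996 and 0.9998. Loxl1, itself an enzyme of the set, was thus among the 3 nearest genes of the chaperone gene.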

How the data were processed

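RNA-seq libraries of 6 samples were grouped by their titles, and columns were assigned by the descriptions in the labels. The deposited values are gene counts, whole numbers without normalization as far as the values show. The submitters' processing notes name kallisto 0.44.0 and mm10 with no role; kallisto estimates counts, so the values may be rounded estimates. Annotation and strand setting are not given in the sources used here. The table has 55481 rows, and 96 that name no mouse gene (at most 2.23e-05% of a library) were left out. Symbols matched for 55144 of 55385 gene IDs; positions, exon lengths and overlaps came from GENCODE M21 (GRCm38).

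Low genes were removed by filterByExpr (count of 10, total of 15), and the rest were normalised with TMM and compared with the edgeR 4.0.16 quasi-likelihood test (R 4.3.3), group as the only term, Benjamini-Hochberg over all tested genes. The standard error is the log2 ratio divided by the square root of F. A count of 0 allows 3 counts, or 0.0759 to 0.101 CPM, for counting error only. Alternatives were RLE, upper-quartile and epithelial scaling, no filter, DESeq2 1.42.0, a replicate block and leaving out each library. Exact tests used SciPy 1.17.1. The fit was tested on simulated counts: fold changes were recovered without bias, and the share of false calls was above the nominal level, mostly among the most variable genes, so calls near the threshold are less certain than their adjusted p. The members and lists were chosen with earlier results of these data known. The naming rule took all 10 members, the gene with the smallest p-value and any called gene of the opposite direction in each pathway list, and the 3 genes most correlated with Lox, Plod2 and Serpinh1.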

Additional observations from a re-analysis of the deposited data

Results flagged for a closer look

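The table has a row for the red fluorescent protein mCherry that enters no comparison. It held 8 counts in knockout replicate 3, above the 3 counts that a count of 0 allows, 1 count in knockout replicate 2 and 0 in the other 4 libraries.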

How the results depend on the processing

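The calls and directions of the 9 called enzyme genes held in all 12 alternatives. With 1 library left out, Plod3 had log2 ratios from -0.34 to 0.00505, the latter without overexpression replicate 1 (adjusted p = 0.988, edgeR), and was lower past the threshold, at -1.18 (adjusted p = 0.00274), when scaled to the epithelial markers, with adjusted p-values from 0.00274 to 0.988 over the alternatives. That scaling moved the median of all tested genes from -0.02 to -1.04, so 375 genes were called higher and 10616 lower (96.6% of the called genes lower, 56.9% in the analysis reported), and 0 of the 48 pathway genes were higher, where 2 were called with TMM. With 1 library left out, 1446 to 2599 genes were higher and 1 to 2 pathway genes, with 1446 without knockout replicate 2 and 1610 without knockout replicate 3. The cause was not tested. Same-numbered libraries of the groups deviated together little (correlations of 0.055, 0.073 and -0.048 for replicates 1, 2 and 3), so the numbers were not taken to pair them. With the replicate block, 8 enzyme genes were lower and 1 higher, as without it, and 5593 genes were called against 5848. Depth limits values on few counts, such as P4ha3 with overexpression (6 to 28 counts), Colgalt2 with overexpression (0 to 1) and Col2a1 with knockout (2 to 10).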

Other observations

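Genes of the hypoxia response, which includes Plod2 and Lox among its known targets, were measured in the same libraries with a list of 11 others. Of these, 5 rose (Pdk1, Bnip3, Ndrg1, Ankrd37 and Slc2a1), 1 fell (Adm) and 5 did not pass the edgeR test, with a median log2 ratio of 0.24; these genes were named after their values were seen. Pdk1, a kinase that limits pyruvate entry into mitochondria, rose from 43.0 ± 1.79 to 109 ± 9.78 CPM (SD, n = 3 each), and Adm, a vasodilator peptide gene, fell from 36.2 ± 18.1 to 2.90 ± 0.833 CPM (SD, n = 3 each). Of all tested genes, 13.6% were called higher and 18% lower. The calls of this list are given with TMM only. Scaling to the epithelial markers left 375 of all tested genes called higher, where 2519 were with TMM. Plod2 and Lox fell in these libraries while those 5 genes rose, and no reason for it was tested.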
